A study of Mus musculus with 2 samples.

Results

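The nuclear genes of oxidative phosphorylation were described here by the open chromatin at their promoters. Members were the protein-coding nuclear genes of GENCODE vM21 whose symbol starts with Ndufa, Ndufb, Ndufc, Ndufs, Ndufv, Uqcr, Cox4, Cox5, Cox6, Cox7, Cox8 or Atp5, together with Sdha, Sdhb, Sdhc and Sdhd. This rule gave 94 gene records out of 21938, with 93 different symbols, because Atp5o is annotated as 2 records. Accessibility was measured by ATAC-seq, in which a transposase inserts sequencing adapters into open DNA. The cells were LβT2, an immortalized mouse gonadotrope line, at passage 21. Both samples carried the same treatment, 4 pulses of 2 nM GnRH given every 2 h, and 4500 cells per sample were taken 45 min after the last pulse, when 6 h and 45 min had passed. No untreated sample was analysed here, so the values describe GnRH-treated cells and contain no response to GnRH. The labels do not say whether the 2 replicates came from separate cultures.

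Oxidative phosphorylation couples the oxidation of NADH and succinate to the synthesis of ATP in the inner mitochondrial membrane. Complexes I and II pass electrons to ubiquinone, complex III passes them on to cytochrome c, complex IV passes them to oxygen, and complex V (ATP synthase) uses the resulting proton gradient. Most subunits are encoded in the nucleus and their genes are expressed in nearly all cells, whereas a few subunits of complex IV exist as isoforms known from particular tissues. Nuclear respiratory factor 1 (NRF1), the ETS factor GABP, YY1, SP1 and the orphan nuclear receptors of the ERR family are known regulators of these genes.

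The promoter stretches below are shown because the comparisons of sequence and of peak presence refer to them. They were read from the RefSeq promoter table of GRCm38.p6, run 5′ to 3′ on the strand of the gene, and hold up to 150 bases upstream of a RefSeq start that no GENCODE transcript has in an exon. Capitals mark exact matches, on either strand, to the letters GCGCATGC or TGCGCA (NRF1 and its shorter core), CCGGAAG (ETS/GABP), GGGCGG (SP1), TGACGTCA (the cAMP response element, CRE) or AAGGTCA (ERR, also bound by the gonadotrope factor SF1). The first set holds NRF1 letters.
Ndufaf4 (chr4:24897933-24898082, plus strand): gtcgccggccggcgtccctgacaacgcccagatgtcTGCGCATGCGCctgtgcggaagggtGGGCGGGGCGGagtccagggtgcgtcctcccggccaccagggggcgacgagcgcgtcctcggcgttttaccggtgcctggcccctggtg
Ndufa6 (chr15:82354323-82354472, minus strand): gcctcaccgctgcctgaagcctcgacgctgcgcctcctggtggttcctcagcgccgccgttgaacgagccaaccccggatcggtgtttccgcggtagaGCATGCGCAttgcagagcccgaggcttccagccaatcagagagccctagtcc
Ndufa11 (chr17:56717686-56717761, plus strand): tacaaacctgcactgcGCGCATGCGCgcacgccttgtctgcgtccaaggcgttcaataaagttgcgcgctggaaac
Cox6a1 (chr5:115348982-115349129, minus strand): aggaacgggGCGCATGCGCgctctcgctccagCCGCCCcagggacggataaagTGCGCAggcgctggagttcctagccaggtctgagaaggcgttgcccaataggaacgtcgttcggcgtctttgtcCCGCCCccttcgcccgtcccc

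The second set holds ETS, CRE or ERR letters.
Atp5e (chr2:174464106-174464255, minus strand): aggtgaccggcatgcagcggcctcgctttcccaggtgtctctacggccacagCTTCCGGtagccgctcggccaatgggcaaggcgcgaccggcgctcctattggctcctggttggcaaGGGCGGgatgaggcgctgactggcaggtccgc
Uqcrh (chr4:116075072-116075221, minus strand): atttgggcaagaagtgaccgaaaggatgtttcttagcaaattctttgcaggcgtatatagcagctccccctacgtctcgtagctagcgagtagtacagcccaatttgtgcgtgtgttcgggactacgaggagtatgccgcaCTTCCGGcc
Uqcr11 (chr10:80406831-80406980, minus strand): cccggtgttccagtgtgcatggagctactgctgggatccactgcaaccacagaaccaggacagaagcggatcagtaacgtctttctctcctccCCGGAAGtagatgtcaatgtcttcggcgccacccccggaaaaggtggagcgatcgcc
Ndufb2 (chr6:39592415-39592564, plus strand): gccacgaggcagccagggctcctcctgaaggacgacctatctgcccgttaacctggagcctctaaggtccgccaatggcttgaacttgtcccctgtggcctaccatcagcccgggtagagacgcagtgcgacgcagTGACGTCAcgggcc
Atp5g3 (chr2:73911327-73911476, minus strand): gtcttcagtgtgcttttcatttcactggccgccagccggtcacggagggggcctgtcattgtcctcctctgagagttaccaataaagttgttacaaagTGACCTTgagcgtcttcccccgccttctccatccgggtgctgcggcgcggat

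The third set holds none of these letters in the stretch printed. It contains the member with the highest mean peak, Ndufaf8, and the one whose replicates differed most, Atp5o. The stretch is shorter than the window used for the motif shares below, so its lack of letters does not extend to that window. There, Ndufaf8 had ETS letters beginning at -8, SP1 letters at -166 and YY1 letters (AAGATGGC) at 10 bp from the RefSeq start. Cox8a had ETS letters at -5 and 32 bp, and Atp5o had none of the letters listed above.
Ndufaf8 (chr11:120098778-120098927, plus strand): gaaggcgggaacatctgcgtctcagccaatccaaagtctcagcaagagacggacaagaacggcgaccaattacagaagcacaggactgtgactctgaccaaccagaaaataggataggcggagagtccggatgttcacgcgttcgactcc
Atp5o (chr16:91931688-91931837, minus strand): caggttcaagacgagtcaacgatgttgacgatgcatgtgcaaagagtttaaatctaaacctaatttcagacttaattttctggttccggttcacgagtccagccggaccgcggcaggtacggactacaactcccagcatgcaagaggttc
Cox8a (chr19:7217617-7217766, minus strand): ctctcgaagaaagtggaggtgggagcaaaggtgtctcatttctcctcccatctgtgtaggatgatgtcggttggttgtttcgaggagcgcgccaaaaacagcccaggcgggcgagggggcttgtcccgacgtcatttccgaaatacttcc

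The fourth set belongs to isoforms of complex IV known from particular tissues.
Cox7a1 (chr7:30183994-30184143, plus strand): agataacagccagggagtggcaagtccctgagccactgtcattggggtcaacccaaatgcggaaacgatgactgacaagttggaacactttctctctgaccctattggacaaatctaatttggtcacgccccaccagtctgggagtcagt
Cox8b (chr7:140900447-140900596, minus strand): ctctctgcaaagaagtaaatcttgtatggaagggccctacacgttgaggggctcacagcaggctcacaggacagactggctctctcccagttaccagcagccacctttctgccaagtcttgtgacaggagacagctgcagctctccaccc
Cox7b2 (chr5:71548206-71548355, minus strand): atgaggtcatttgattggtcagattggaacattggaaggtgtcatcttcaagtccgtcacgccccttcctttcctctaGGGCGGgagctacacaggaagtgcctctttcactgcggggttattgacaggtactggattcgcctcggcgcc

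Among the printed genes, Cox6a1, Uqcr11, Cox8b and Cox7b2 had no promoter peak in either replicate, and Atp5g3 had one in replicate 2 only. The other printed genes had a promoter peak in both. Letters of the same kind therefore stood in promoters with and without a peak, as the pair of Ndufaf4 and Cox6a1 (NRF1) and the pair of Uqcrh and Uqcr11 (ETS) show.

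A promoter peak was a peak that overlapped the 1 kb on either side of any annotated transcription start site (TSS) of the gene. A promoter peak was present at 54 of 94 members (57.4%) in replicate 1 and at 79 (84.0%) in replicate 2, a mean of 70.7% ± 18.8 (SD, n = 2). Over all protein-coding nuclear genes the share was 32.9% in replicate 1 and 45.0% in replicate 2. In both replicates 53 members (56.4%) had a promoter peak, against 31.5% of all coding genes. A peak was seen in neither replicate at 14 members (14.9%), against 53.6% of all coding genes. The share of members thus exceeded that of all coding genes in each replicate separately. Of the 27 members with a peak in 1 replicate, 26 had it in replicate 2, and the exception was Atp5j2, which had 13 tags at the summit in replicate 1 and no peak within 9589 bp of a TSS in replicate 2.

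The tags behind these calls were few. The tags at a summit are the reads, extended to 200 bp by the peak caller, that cover it, and they were solved from the deposited fold and p-value of each peak. The lowest peak of the whole list had 10 tags in replicate 1 and 11 in replicate 2, over a background of 3.05 and 3.54 tags. A member without a peak therefore had none that passed the limit of a call. As a check of the labelled cell type, the gonadotrope genes Lhb, Cga, Gnrhr and Nr5a1 had promoter peaks in both replicates, Gata2 had one in replicate 2, Fshb and Pitx1 had none, and none of 6 genes of other pituitary lineages had one.

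**Figure D1:**
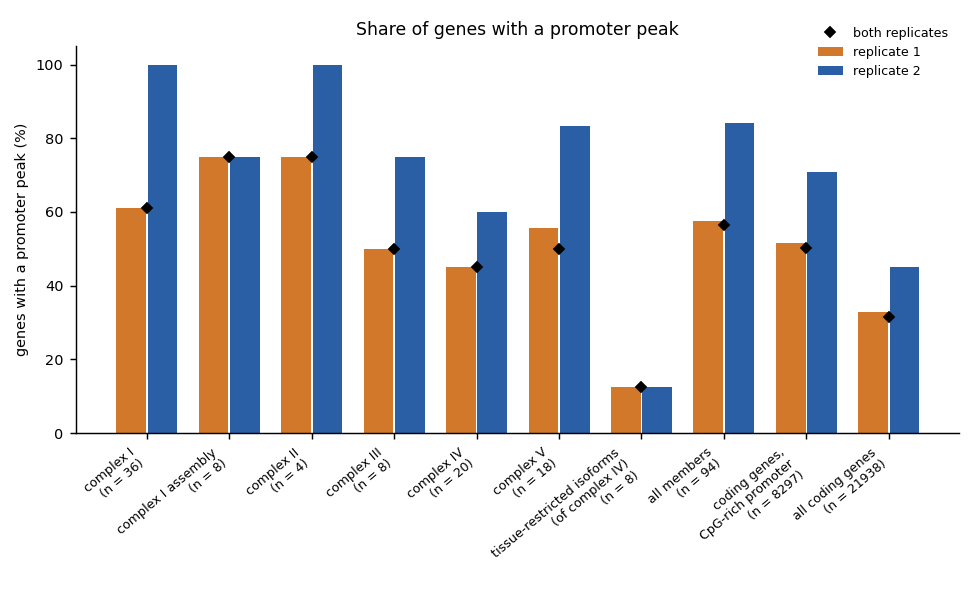
Share of genes with a promoter peak (%, y axis) for each complex, the tissue-restricted isoforms, all members and 2 sets of coding genes, with orange bars for replicate 1, blue bars for replicate 2 and black diamonds for genes with a peak in both. All 36 complex I subunits had a peak in replicate 2, whereas complex IV, which includes all 8 tissue-restricted isoforms, reached 60%. All members (57.4% and 84.0%) stood above all coding genes (32.9% and 45.0%).

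Where a promoter peak was present, its median strength was close to that of all coding genes. The median of −log10 q at member promoters was 6.97 in replicate 1 and 13.4 in replicate 2, and that at all coding promoters with a peak was 6.97 and 12.5. The median tags at the summit were 19 and 28 for members and 19 and 27 for all coding genes. For genes called in both replicates, the median in replicate 2 was 37 tags for members and 32 for all coding genes. Within the ranking of all coding genes with a peak, the members had a median percentile of 49.8 in replicate 1 and 54.0 in replicate 2, and 7 and 8 members stood above the 90th percentile. The members stood above other genes in how often a peak was called, whereas the median height of the called peaks was close to that of all coding genes. At a threshold of −log10 q of at least 10 in both replicates, the member share fell to 16 genes (17.0%) against 11.2% of all coding genes. In replicate 1 the same threshold kept 17.0% of members against 11.5% of coding genes, and in replicate 2 it kept 51.1% against 27.3%.

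Promoters rich in CpG, a class common among genes expressed in all tissues, are open more often than others, and members were mostly of this class. Of the 93 member symbols, 74 were found in the promoter table, with 79 promoters. Their median GC content was 57.7% and their median ratio of observed to expected CpG was 0.828, against 57.0% and 0.588 over 20150 promoters of coding genes. A promoter was called CpG-rich when its GC content was at least 50% and this ratio at least 0.6, which held for 77.2% of member promoters and 46.7% of coding promoters. Among genes with a CpG-rich promoter, a peak was present at 57.9% of 57 member records in replicate 1 and 89.5% in replicate 2, and at 51.7% and 71.0% of 8297 coding genes. The share with a peak in both replicates was 57.9% for these members and 50.3% for CpG-rich coding genes. At −log10 q of at least 10, 21.1% of these members and 18.9% of CpG-rich coding genes had a peak in replicate 1. In replicate 2 these shares were 50.9% and 45.4%. The share of all members at this threshold in replicate 1, 17.0%, was below that of CpG-rich coding genes. For the 18 member records whose promoters were not CpG-rich, the shares were 50% and 77.8%, against 16.3% and 22.3% of coding genes of this kind. The mean difference between members and the compared genes was 31.8 percentage points against all coding genes and 9.44 between all members and CpG-rich coding genes.

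**Figure D2:**
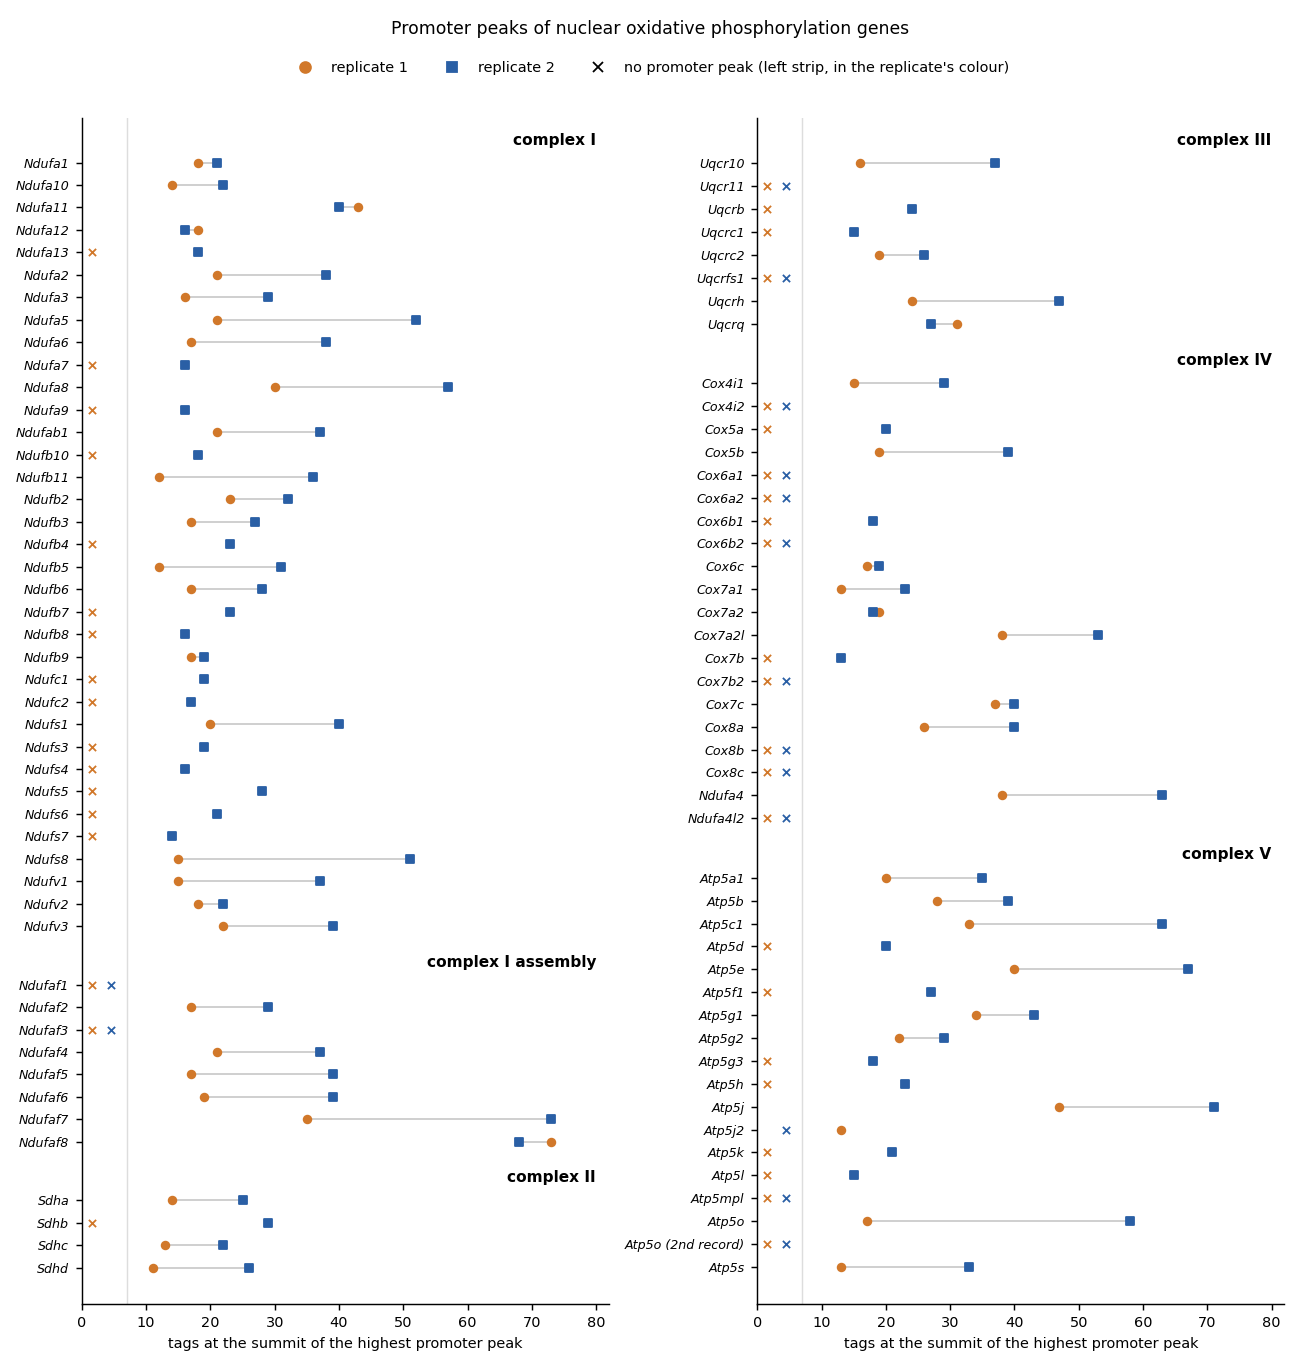
Tags at the summit of the highest promoter peak (x axis) for 93 of the 94 member records (y axis), grouped by complex, with orange circles for replicate 1, blue squares for replicate 2 and a grey line joining them. Crosses in the strip at the left mark a replicate without a promoter peak. The lowest and the highest member had 11 and 73 tags in replicate 1, those of replicate 2 had 13 and 73, and most members stood higher in replicate 2.

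Complex I, the NADH:ubiquinone oxidoreductase, is the largest complex. All 36 of its members had a promoter peak in replicate 2, and 22 of them also had one in replicate 1. Ndufa8, an accessory subunit, was the highest by mean −log10 q after Ndufa4 was counted with complex IV, with 30 tags in replicate 1 and 57 in replicate 2. Ndufa11, another accessory subunit, had 43 and 40 tags, but its summits lay at -749 and -683 bp from the nearest TSS, upstream on the side of the divergently transcribed Vmac. Ndufs8, a core subunit that carries iron-sulfur clusters, had 15 tags in replicate 1 and 51 in replicate 2, a ratio of 3.40. Other core subunits encoded in the nucleus were less uneven or were missed in replicate 1. Ndufs1, the large subunit with iron-sulfur clusters, had 20 and 40 tags. Ndufv1, which binds NADH, had 15 and 37 tags, and its partner Ndufv2 had 18 and 22. Ndufs3 and Ndufs7 had a peak in replicate 2 only, with 19 and 14 tags.

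Among complex I members called in both replicates, the 3 with the lowest mean −log10 q were accessory subunits. Ndufa12 had 18 tags in replicate 1 and 16 in replicate 2, Ndufb9 had 17 and 19, and Ndufa10 had 14 and 22. Further members with a peak in replicate 2 only were Ndufa7, Ndufa9, Ndufb8 and Ndufs4 with 16 tags each, Ndufc2 with 17, Ndufa13 and Ndufb10 with 18, Ndufc1 with 19, Ndufs6 with 21, Ndufb4 and Ndufb7 with 23, and Ndufs5 with 28. For Ndufa13 the peak also overlapped the promoters of Tssk6 and Yjefn3 and ended 399 bp from the TSS of Ndufa13. Ndufb11, an accessory subunit on the X chromosome, had 12 tags in replicate 1 and 36 in replicate 2, and its summit in replicate 1 was the only member summit whose 50 bp occur at 2 places in the genome.

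Of the 8 assembly factors of complex I whose symbol starts with Ndufaf, 6 had a promoter peak in both replicates and 2, Ndufaf1 and Ndufaf3, in neither. Ndufaf8 (ENSMUSG00000078572.3), an assembly factor that partners Ndufaf5, had the highest mean −log10 q of all members, 68.9 in replicate 1 and 58.0 in replicate 2 (63.4 ± 7.70, SD, n = 2). Its peaks covered chr11:120098624-120099010 in replicate 1 and chr11:120098506-120099264 in replicate 2, with 73 tags (exact Poisson 95% interval 57.2 to 91.8) and 68 tags (52.8 to 86.2). Ndufaf7, a methyltransferase of the same assembly pathway, had 35 tags (24.4 to 48.7) and 73 tags (57.2 to 91.8), so that its intervals did not overlap whereas those of Ndufaf8 did. Such intervals cover counting error only and were not scaled between the libraries. The tag ratio of replicate 2 to replicate 1 was 2.09 for Ndufaf7 and 0.932 for Ndufaf8, beside a median of 1.64 over coding genes. The nearest peak to Ndufaf1 was 44070 bp away in replicate 1 and 43933 bp away in replicate 2, and that to Ndufaf3 was 58545 and 2339 bp away.

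Complex II, succinate dehydrogenase, is the smallest complex and entirely nuclear. Sdha, the flavoprotein that oxidizes succinate, had 14 tags in replicate 1 and 25 in replicate 2. Sdhb, the iron-sulfur subunit, had no peak in replicate 1 and 29 tags in replicate 2. The membrane anchors Sdhc and Sdhd had 13 and 11 tags in replicate 1 and 22 and 26 in replicate 2. All 4 promoters were thus open in replicate 2 within a narrow range of 22 to 29 tags, and the 3 called in replicate 1 had at most 14 tags there.

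In complex III, the cytochrome bc1 complex, 4 of 8 members had a peak in both replicates, 2 in replicate 2 only and 2 in neither. Uqcrq, a small subunit, had 31 tags in replicate 1 and 27 in replicate 2, and its TSS lies 192 bp from that of the divergent gene Gdf9, a growth factor gene. Uqcrh, the hinge protein, had 24 and 47 tags, Uqcrc2 had 19 and 26, and Uqcr10 had 16 and 37. Uqcrb had 24 tags and Uqcrc1 had 15 tags in replicate 2 only. The Rieske iron-sulfur protein gene Uqcrfs1 had no promoter peak, and its nearest peak was 168460 bp away in replicate 1 and 153863 bp away in replicate 2. Uqcr11, a small subunit, had its nearest peaks at 6883 and 6897 bp.

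Complex IV, cytochrome c oxidase, was the least complete, with 9 of 20 members open in both replicates, 3 in replicate 2 only and 8 in neither. This count includes all 8 isoforms known from particular tissues, and 7 of these are among the members without a peak. Ndufa4, now counted as a subunit of this complex, had 38 tags in replicate 1 and 63 in replicate 2. Cox7a2l, a factor of supercomplex assembly, had 38 and 53 tags, Cox7c had 37 and 40, Cox8a had 26 and 40, and Cox5b had 19 and 39. Cox6c was among the lowest called members, with 17 and 19 tags. Cox5a, Cox6b1 and Cox7b had a peak in replicate 2 only, with 20, 18 and 13 tags.

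Of the 8 members of complex IV without a peak in either replicate, 7 are known as tissue-restricted isoforms, and these are 7 of the 14 such members in all. The 8 isoforms of this kind were Cox6a2, Cox7a1 and Cox8b of muscle, Cox6b2, Cox7b2 and Cox8c of testis, Cox4i2 of lung and the hypoxia-induced Ndufa4l2. Only Cox7a1 among them had a promoter peak, with 13 tags in replicate 1 and 23 in replicate 2 (−log10 q of 2.88 and 9.22). The other 7 had none in either replicate, so that the share was 12.5% in each. Over all coding genes the share was 32.9% in replicate 1 and 45.0% in replicate 2. Coding genes whose promoter was not CpG-rich, the class of Cox6b2, Cox7a1, Cox7b2 and Cox8b, had shares of 16.3% and 22.3%. The 7 broadly expressed paralogs of the isoforms had a peak in both replicates at 4 genes, in replicate 2 only at 2 and in neither at 1. Cox4i1 had 15 and 29 tags, Cox7a2 had 19 and 18, and Ndufa4 and Cox8a had the values given above, while Cox6a1 had none. Cox7a1, the muscle isoform, and its paralog Cox7a2 therefore were both open. The nearest peaks to the other isoforms were closest at Ndufa4l2 (1864 and 1895 bp) and farthest at Cox8c (50859 and 141122 bp). The distance was 6878 and 2022 bp for Cox6a2, 15971 and 14264 bp for Cox4i2, 12367 and 10795 bp for Cox6b2, 7915 and 7987 bp for Cox7b2, and 43705 and 18098 bp for Cox8b. Cox6a1 lay 47640 and 9962 bp from a peak, as far as several of the restricted isoforms. Without the 8 isoforms, 52 of 86 members (60.5%) had a peak in both replicates and 7 in neither.

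Complex V, the ATP synthase, had 9 of 18 records open in both replicates, 7 in 1 replicate and 2 in neither. The subunits of its catalytic head differed in height. Atp5a1 and Atp5b, the alpha and beta subunits, had 20 and 28 tags in replicate 1 and 35 and 39 in replicate 2. Atp5c1, the gamma subunit, had 33 and 63 tags, and Atp5e, the epsilon subunit, had 40 and 67, whereas Atp5d, the delta subunit, had 20 tags in replicate 2 only. The summit at Atp5d lay 47 bp from an annotated TSS but 2872 bp from the gene start. Its peak also overlapped the promoter of Cbarp. In the stalk, Atp5j (ENSMUSG00000022890.13) ranked second of all members with 47 tags (34.5 to 62.5) in replicate 1 and 71 tags (55.5 to 89.6) in replicate 2. Its peaks covered chr16:84834456-84835092 and chr16:84834338-84835640, and they were also the highest promoter peaks of Gabpa, the DNA-binding subunit of GABP, whose TSS lies 93 bp away.

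Atp5o (ENSMUSG00000022956.11), the stalk subunit that confers oligomycin sensitivity, had the largest ratio between replicates, 17 tags (9.90 to 27.2) in replicate 1 and 58 tags (44.0 to 75.0) in replicate 2, a ratio of 3.41. Its second record, with a separate TSS, had no promoter peak. Of the genes for the c subunit that forms the rotor ring, Atp5g1 had 34 and 43 tags, Atp5g2 had 22 and 29, and Atp5g3 had 18 tags in replicate 2 only. Atp5h and Atp5f1 of the stalk had 23 and 27 tags in replicate 2 only, and the small membrane subunits Atp5k and Atp5l had 21 and 15. The peak at Atp5l ended 203 bp from its TSS. Atp5s, named as a coupling factor, had 13 and 33 tags, and Atp5mpl, a small membrane subunit, had no peak within 93640 bp in replicate 1 and 29117 bp in replicate 2.

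**Figure D3:**
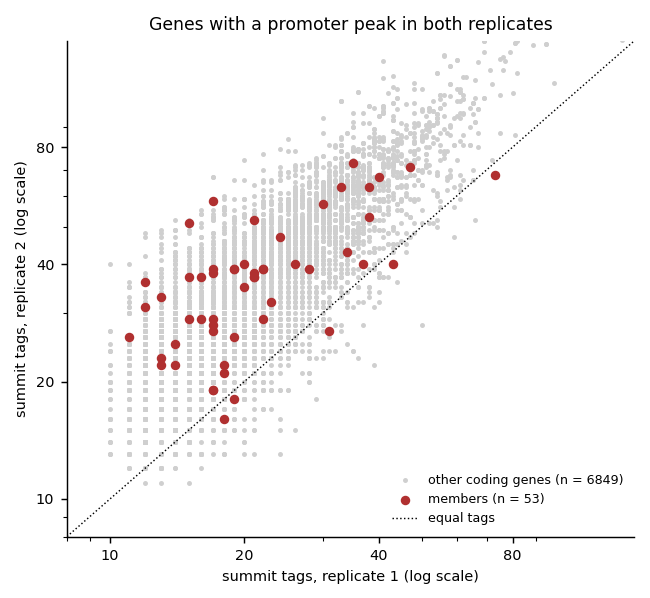
Tags at the summit of the highest promoter peak in replicate 1 (x axis) against replicate 2 (y axis), both on log scales, for members in red and other coding genes in grey, with a dotted line of equal tags. Of 53 members, 48 lay above the line and 5 below it, within the cloud of the other genes, 27 of which lie beyond the axes.

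Members stood higher in replicate 2, as other genes did. The tag ratio of replicate 2 to replicate 1 had a median of 1.76 over the 53 members with a peak in both, and of 1.64 over coding genes. Ndufa11, Ndufa12, Ndufaf8, Uqcrq and Cox7a2 had fewer tags in replicate 2. The 26 members called in replicate 2 only had a median of 18.5 tags there, from 13 to 29, whereas the members called in both had a median of 37 tags in replicate 2. Over all coding genes these medians were 19 and 32. The calls missing from replicate 1 were thus mostly the low peaks of replicate 2, and presence in 1 replicate cannot be told apart from the difference in signal between the libraries. The rank correlation of −log10 q between the replicates was 0.645 over 53 members and 0.757 over coding genes, as a description across genes that share the 2 libraries.

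**Figure D4:**
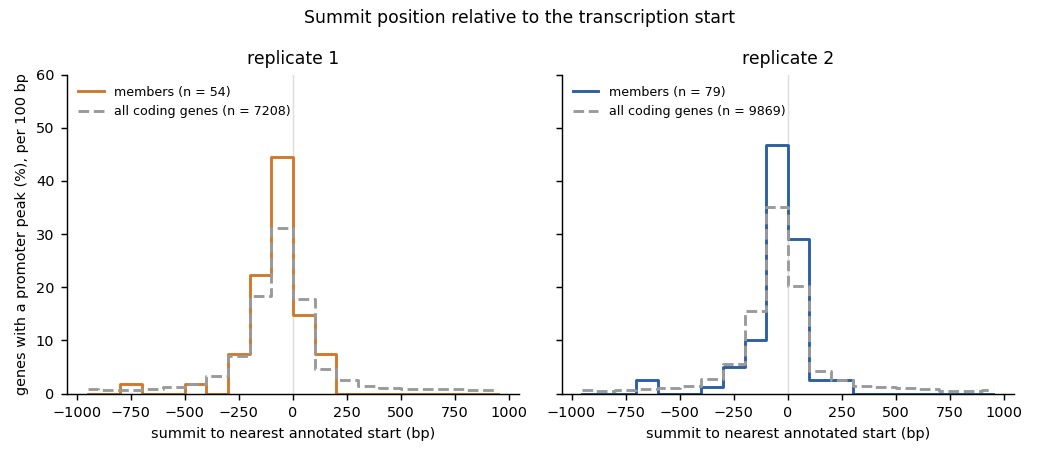
Distance from the summit of the highest promoter peak to the nearest annotated TSS of the gene (x axis, bp, negative upstream), as the share of genes with a promoter peak in bins of 100 bp (y axis, %), for members (solid) and all coding genes (dashed) in each replicate. Summits within 100 bp of a TSS made up 59.3% and 77.2% of member peaks and 48.9% and 55.4% of coding peaks.

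Member summits lay close to the TSS. In replicate 1, 32 of 54 summits (59.3%) were within 100 bp of an annotated TSS, and in replicate 2, 61 of 79 (77.2%), against 48.9% and 55.4% of coding genes with a promoter peak. The median absolute distance was 81 bp and 47 bp for members and 104 bp and 84 bp for coding genes. Members had a median of 4 annotated TSSs and coding genes 3, which bears on this distance. Most summits were upstream of the TSS, 77.8% in replicate 1 and 65.8% in replicate 2, and the shares of coding genes were 67.1% and 65.3%. The median width of the member peaks was 473.5 bp and 507 bp, against 390 bp and 508 bp. A summit whose 50 bp recur elsewhere in the genome was found at 1 member peak in replicate 1 (1.85%) and at none of 79 in replicate 2, against 8.44% and 6.37% of coding peaks.

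Many members share their promoter region with a gene transcribed away from them. A coding gene on the other strand whose TSS lay within 1 kb in the divergent direction was present at 34 members (36.2%) and at 11.0% of all coding genes. Of these 34 members, 27 (79.4%) had a promoter peak in both replicates and none lacked one in both, whereas of the 60 members without such a partner 26 (43.3%) had a peak in both and 14 in neither. Among coding genes the shares with a peak in both were 62.7% with a partner and 27.6% without, so that both kinds of members stood above their background. At −log10 q of at least 10 in replicate 1, 26.5% of members and 26.6% of coding genes with a partner had a peak. In replicate 2 these shares were 76.5% and 58.2%. Of the 10 highest members by mean −log10 q, 7 had a partner, among them Ndufaf8 with Tepsin (197 bp between the TSSs), Atp5j with Gabpa (93 bp), Ndufaf7 with Cebpz (70 bp), Ndufa4 with Phf14 (312 bp) and Atp5c1 with Kin (83 bp). The shortest distances were 3 bp, for Ndufs1 with Eef1b2 and for Ndufb11 with Rbm10. At such promoters 1 peak serves both genes and cannot be assigned to either.

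**Figure D5:**
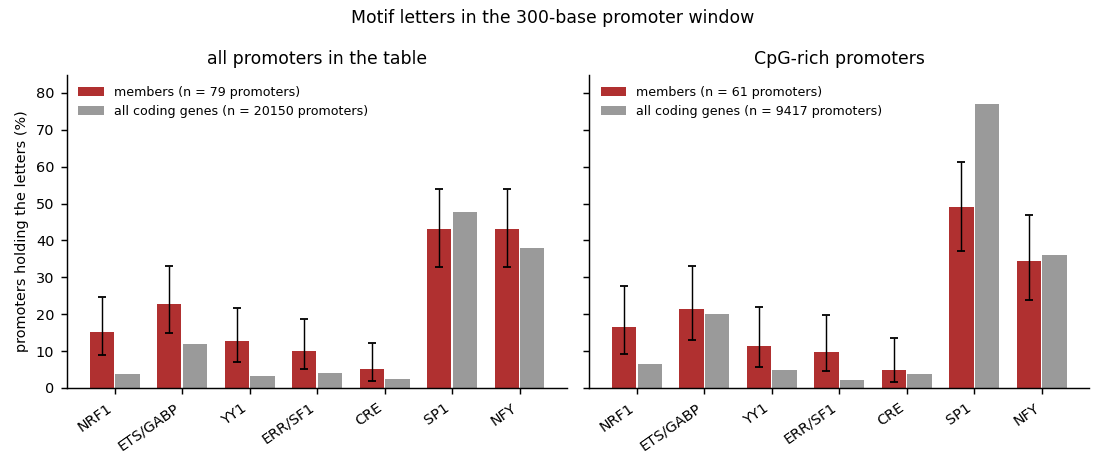
Share of promoters (y axis, %) that hold the letters of each motif (x axis) in the window from 250 bp before to 50 bp after the RefSeq start, for members (red, with Wilson 95% intervals) and all coding genes (grey), over all promoters at the left and CpG-rich promoters at the right. NRF1 letters were in 15.2% of member promoters and 3.65% of coding promoters, while SP1 letters were in 43.0% and 47.8%.

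The letters of 10 motifs were searched on both strands of the 300-base window from 250 bp before to 50 bp after each RefSeq start. A match describes the sequence and is not evidence of binding. NRF1 letters (GCGCATGC) were in 12 of 79 member promoters (15.2%, Wilson 95% interval 8.91 to 24.7) and in 3.65% of coding promoters, and the shorter TGCGCA in 24.1% and 9.96%. Among CpG-rich promoters the NRF1 shares were 16.4% and 6.53%, and among genes with a peak in both replicates they were 13.6% and 5.50%. In the 200 bp around the summits they were 4.76% and 3.43% in replicate 1 and 10.8% and 4.30% in replicate 2. YY1 letters (AAGATGGC) were in 10 member promoters (12.7%, 7.02 to 21.8) and in 3.11% of coding promoters. The looser AANATGGC, in which N is any base, was in 22.8% and 6.47%. Among genes with a peak in both replicates the YY1 shares were 6.82% (2.35 to 18.2) and 4.15%, so that the interval of the members held the coding share. Of the 10 YY1 matches in member promoters, 9 began at or after the start, against 48.7% of the matches in coding promoters, and the median position of the member matches was 23.5 bases downstream. ERR letters (AAGGTCA) were in 8 member promoters (10.1%, 5.22 to 18.7) and in 3.97% of coding promoters, and in 9.84% and 2.15% of CpG-rich ones. With a peak in both replicates, the ERR shares were 6.82% (2.35 to 18.2) and 2.98%, and the interval of the members again held the coding share.

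ETS letters (CCGGAAG) were in 18 member promoters (22.8%, 14.9 to 33.2) against 11.9% of coding promoters, but the shares were 21.3% and 20.1% among CpG-rich promoters and 18.2% and 19.3% among genes with a peak in both replicates. SP1 letters (GGGCGG) were in 43.0% of member promoters and 47.8% of coding promoters, and were less frequent in CpG-rich members (49.2%, 37.1 to 61.4) than in CpG-rich coding promoters (76.9%). CRE letters (TGACGTCA) were in 4 member promoters (5.06%, 1.99 to 12.3) and 2.31% of coding promoters, a share that this interval held. The shorter TGACG was in 35.4% and 24.2%. Among CpG-rich promoters the CRE shares were 4.92% and 3.75%, and those of TGACG were 37.7% and 35.6%. The CCAAT box was in 43.0% and 37.8%, and in 34.4% and 36.0% of CpG-rich promoters. The shorter NRF1 word overlaps the longer one in part, and the shorter CRE word lies wholly within the longer one. The looser YY1 word also matches wherever the exact one does. Of the promoters with NRF1 letters printed above, that of Cox6a1 belonged to a gene with no promoter peak.

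Genes that work with the members were described in the same way, from lists drawn up for this purpose. Of 14 genes for electron carriers and their synthesis, 9 had a promoter peak in both replicates and 2, Coq5 and the testis cytochrome c gene Cyct, in neither. Cycs, the somatic cytochrome c, had 34 tags in replicate 1 and 64 in replicate 2, while Cyc1, the cytochrome c1 of complex III, had 19 tags in replicate 2 only. Of 32 assembly factors outside the rule, 21 had a peak in both replicates and 4 (Atpaf1, Cox16, Nubpl and Ttc19) in neither, and the neighbours Tmem126a and Tmem126b had 39 and 38 tags in replicate 1 and 78 and 71 in replicate 2. These shares, 64.3% and 65.6% with a peak in both, stood beside 56.4% for the members and 31.5% for all coding genes. Of 17 regulators, 10 had a peak in both replicates. Tfb1m, a mitochondrial rRNA methyltransferase, had 65 and 97 tags, Sp1 had 51 and 85, Esrra had 29 and 40, and Tfam, the mitochondrial transcription factor, had 13 and 24. Yy1 and Gabpb1 had peaks in replicate 2 only, with 20 and 16 tags. Nrf1, Esrrb, Esrrg, Polrmt and Ppargc1a had no promoter peak in either replicate.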

How the data were processed

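ATAC-seq was performed on 2 replicates of GnRH-treated LβT2 cells. The authors mapped reads with bowtie2 to GRCm38 (mm10), removed duplicate reads and then ran MACS2 on each replicate. The genome size option named in the methods is that of the fly, and a smaller genome size raises the background and the tags a call needs. No input control is named, and versions are not given in the sources used here. The files deposited by the authors list peaks with a score, with the ratio of the summit to the background (fold enrichment), and with p-values and q-values as −log10. The score was 10 times the −log10 q, as a whole number.

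Tags and background were solved from fold and p-value in Python 3.11.15 (scipy 1.17.1, numpy 2.4.6). Copy numbers were counted with numba 0.67.0, tables were joined with pandas 2.3.3 and plots were made with matplotlib 3.10.9. All peaks gave whole tags, within 0.01 of a tag. The lists held 58519 and 64984 peaks, with medians of 14 and 16 tags, and the total reads of each library, for which the study gives a lower bound, were not analysed here. A peak counted for a gene when it overlapped a promoter by at least 1 bp, and the highest peak by −log10 q was used. With 1 condition and 2 replicates, no groups were compared and no test was run, and shares of members were set beside those of all coding genes. The overlap, tag, copy number and motif steps were tested on simulated data.

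The members, their roles and the other gene lists were chosen with earlier results of these data known. Genes named were the 10 highest members by mean −log10 q, the 5 lowest with peaks in both replicates, all with a peak in 1 or no replicate, the tissue-restricted isoforms and their paralogs, the 3 with the largest ratio between replicates, and complex II, 63 symbols in all. Other members were named after their values were seen. The member symbols Atp5a1, Atp5f1, Atp5mpl, Atp5s, Cox4i1, Cox4i2, Cox6a2, Cox6c, Cox8c, Ndufa2, Ndufa4l2, Ndufaf6, Ndufb9, Ndufs1, Sdhc, Uqcrb, Uqcrc2 and Uqcrq were not matched in the promoter table. The values of 1 member are not reported here, although it is part of the counts. All 20150 promoter sequences used equal the genome sequence. Alternatives concerned the q threshold, the promoter width, the annotation, the summit rule, copy number, the compared genes, the motif window and leaving out either replicate. Leaving out a replicate for the distance to the TSS was chosen after seeing the data.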

Additional observations from a re-analysis of the deposited data

Results flagged for a closer look

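The remaining 13 protein subunits of the respiratory chain are encoded in the mitochondrial genome, which lies outside the promoter comparison. One peak covered all 16299 bp of it in each replicate. Its fold enrichment over the background was 3509 in replicate 1 and 4159 in replicate 2, and the summit held 14209 and 18863 tags, against at most 73 tags at a nuclear member in either replicate, and it ranked second of all peaks by −log10 q in each. It was picked out as a signal in data that no comparison above uses, with no control sample to set it against. Mitochondrial DNA is present in many copies and is not packed into nucleosomes.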

How the results depend on the processing

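The share of members with a promoter peak in both replicates stayed above that of all coding genes under every alternative of threshold, promoter width, annotation, summit rule and copy number. It was 55.3% against 28.9% with 250 bp and likewise for single-copy summits, and the smallest difference was 17.0% against 11.2%, at −log10 q of at least 10. That threshold moved the mean share with a peak to 34.0%, the count in both replicates to 16, the median −log10 q to 22.1 and the isoform share to 0%. The isoform share was 6.25% at −log10 q of at least 5, 25.0% with 2 kb, and 25.0% of 4 isoforms with RefSeq starts. Between all members, CpG-rich or not, and CpG-rich coding genes the difference in mean share fell to 9.44 percentage points, less than its main value of 31.8. Within the CpG-rich class the mean share was 73.7% for members and 61.3% for coding genes. For promoters that were not CpG-rich it was 63.9% and 19.3%. Summits within 100 bp of a TSS were 53.9% by the gene start alone, and 94.4% lay within 250 bp. Of the 10 motifs, which count the shorter and looser words separately, 7 were at least 1.5 times as frequent in member promoters. The count was 5 among CpG-rich promoters and 6 among genes with a peak in both replicates. In 200 bp windows at the summits it was 3 in replicate 1 and 5 in replicate 2. Leaving out either replicate gave shares of 57.4% to 84.0%, a median −log10 q of 6.97 to 13.4, an isoform share of 12.5%, summits within 100 bp at 59.3% to 77.2% and widths of 473.5 to 507 bp. These values are from 1 library each and have no spread, and a promoter with fewer tags than the lowest peak of a library could not be called. In all, 85 of 103 values stayed within the replicate spread, the interval or 1.5 times the count. Values with a replicate left out count among them, although they could not leave a spread computed from the same 2 replicates. They are therefore no sign of stability.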

Other observations

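Pseudogenes whose symbols carry the same prefixes are copies of the members. Reads can be shared with the parent gene, but this was not tested at the pseudogenes. Of 12 such pseudogenes, Atp5c1-ps was open in both replicates, with 16 and 19 tags, against 33 and 63 at its parent Atp5c1. Atp5l-ps2 had one in replicate 2 only, with 18 tags, and its parent Atp5l had 15 tags there. The other 10 had none.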
